A study of Mus musculus with 2 samples.

Results

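Immediate-early genes are transcribed within minutes of a stimulus, from factors that already sit in the cell, and this set of 10 was read in nuclei of iWAT, the inguinal white fat that lies under the skin of the mouse. The genes were taken by symbol, not by any measured value: Fos, Fosb, Jun, Junb, Atf3, Egr1, Ier2, Nr4a1, Klf4 and Dusp1, which make 10 of the 31053 genes of the deposited matrices. Single-nucleus RNA sequencing (snRNA-seq) counts, for each nucleus, RNA molecules marked with a unique molecular identifier (UMI). There was 1 library for each genotype. Both came from male mice on a C57BL/6 background fed a Western diet, and in each the iWAT of 3 mice was pooled after the lymph node had been taken out. In the Lexis KO mice, Lexis, a long noncoding RNA, was deleted by crossing floxed Lexis mice with Adipoq-cre mice, whose Cre is driven by a promoter active in adipocytes, and the Lexis WT mice were littermate controls.

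For both libraries the file names give the genotype that the labels do not, and Lexis was not analysed here, so each library is named after its label, as the library labelled WT or KO, and every direction holds for the labels. The files held 9376351 UMIs in 5000 barcodes for WT and 19655049 UMIs in 5000 barcodes for KO. After filters on genes, mitochondrial RNA and doublets, 3503 and 2852 nuclei remained, with a median of 1195 and 3879 UMIs. Clusters were named from marker genes and are called adipocyte-like (418 nuclei in WT and 894 in KO), ASPC-like (adipogenic stem and precursor cells, here with fibroblasts; 298 and 787), myeloid-like (325 and 811), lymphocyte-like (2107 and 106), endothelial-like (94 and 122), mural-like (10 and 44) and myocyte-like (0 and 52). Most classes were made of different clusters in each library: cluster 4 held the adipocyte-like nuclei of WT and cluster 1 nearly all of those of KO, cluster 8 most ASPC-like nuclei of WT and clusters 5 and 6 most of those of KO, cluster 7 most myeloid-like nuclei of WT and clusters 3 and 9 most of those of KO. The lymphocyte-like class of WT was cluster 0 with B cell markers, cluster 2 with T cell markers and the dividing cluster 13, and that of KO was mostly cluster 14, led by natural killer genes such as Ncr1 and Gzma, and cluster 17 with B cell markers. With 1 library per genotype, no test between genotypes was possible. Every interval below is a 95% interval for counting error only, genotype cannot be told apart from the library, and spread between mice is not in any of them.

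The AP-1 proteins Fos, Fosb, Jun and Junb pair with one another through a leucine zipper and bind DNA, and Atf3 is a stress-induced zipper protein of the related ATF family. Egr1 and Klf4 are zinc finger transcription factors, Nr4a1 is an orphan nuclear receptor, Ier2 is a nuclear protein of early responses, and Dusp1 is a phosphatase that switches off MAP kinases. Their RNAs are short-lived, respond to growth factors, cytokines and adrenergic signals in fat, and are also known to rise when a tissue is taken apart.

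The promoters are where the inducing signals meet these genes, so those of 4 genes that the results turn on are shown, as the 250 bases before the start of the gene (RefSeq, GRCm38.p6, 5′ to 3′ on the strand of the gene). Capitals mark the cAMP response element (CRE, TGACGTCA), its half-site TGACG, and the TATA box TATAAA, each searched on both strands, and a CRE holds a half-site on each strand. Fos lies at chr12:85473890-85477274 on the plus strand with its promoter at chr12:85473640-85473889. Dusp1 lies at chr17:26505591-26508472 on the minus strand with its promoter at chr17:26508473-26508722. Atf3 lies at chr1:191170296-191183333 on the minus strand with its promoter at chr1:191183334-191183583. Nr4a1 lies at chr15:101253902-101274795 on the plus strand, and its promoter in the table, at chr15:101266596-101266845, precedes a start inside the annotated gene.
Fos: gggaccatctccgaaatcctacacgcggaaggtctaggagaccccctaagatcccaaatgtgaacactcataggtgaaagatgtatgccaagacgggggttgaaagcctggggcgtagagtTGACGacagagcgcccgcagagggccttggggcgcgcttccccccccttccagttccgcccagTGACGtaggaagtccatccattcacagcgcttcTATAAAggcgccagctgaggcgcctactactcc
Dusp1: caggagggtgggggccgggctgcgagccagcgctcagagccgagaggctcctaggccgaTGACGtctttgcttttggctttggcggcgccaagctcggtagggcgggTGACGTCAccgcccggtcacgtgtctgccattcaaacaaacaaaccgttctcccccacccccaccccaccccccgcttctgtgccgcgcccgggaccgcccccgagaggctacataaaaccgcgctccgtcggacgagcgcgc
Atf3: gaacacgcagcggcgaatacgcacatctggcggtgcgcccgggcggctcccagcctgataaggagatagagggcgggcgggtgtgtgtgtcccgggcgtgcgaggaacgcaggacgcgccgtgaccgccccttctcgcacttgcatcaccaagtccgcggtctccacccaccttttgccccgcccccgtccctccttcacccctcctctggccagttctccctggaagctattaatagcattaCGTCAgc
Nr4a1: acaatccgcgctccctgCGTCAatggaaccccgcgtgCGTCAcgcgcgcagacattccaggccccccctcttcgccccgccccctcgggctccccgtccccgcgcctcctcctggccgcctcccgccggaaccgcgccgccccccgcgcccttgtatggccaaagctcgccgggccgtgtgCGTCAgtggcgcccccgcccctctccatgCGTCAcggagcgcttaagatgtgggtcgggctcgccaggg

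The CRE half-site stood in 7 of the 8 member promoters found in the table (those of Egr1 and Ier2 had no entry), against 17.8% of all 32851 promoters of that length. Nr4a1 held 4 half-sites, at -233, -213, -69 and -40 from the start, and Fos held 2, at -129 and -66. Jun was the promoter with none. The whole CRE stood in 1 promoter, that of Dusp1, at -143 to -136, against 1.55% of all promoters. TATAAA stood in the Fos promoter alone, at -33 to -28, against 12.4% of all. The AP-1 motif TGAGTCA, in 4.46% of all promoters, and the CArG box of serum response factor, in 1.47%, were in none of the 8 windows, which says only that these letters are not in them. The other members lie at chr7:19302696-19310118 (Fosb), chr4:95049036-95052222 (Jun), chr8:84976909-84978748 (Junb), chr18:34861207-34864956 (Egr1), chr8:84661331-84662852 (Ier2) and chr4:55527137-55532475 (Klf4).

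Which cells carried these RNAs was read first, within each library. Levels are in CPM, the UMIs of a gene over all UMIs of the class on the usual scale of counts per 1e6, summed over its nuclei, and they are compared between classes for 1 gene at a time, not between genes. In both libraries Fos and Atf3 were highest in myeloid-like nuclei, and Klf4 and Egr1 were highest in ASPC-like nuclei. Nr4a1 was highest in the myocyte-like nuclei of the KO library. The highest class, among classes of at least 50 nuclei, was the same in both libraries for 5 genes. It was above the next class beyond counting error for 5 genes in WT and 7 in KO. Genes are called higher or lower beyond counting error where the interval of a ratio leaves out 1.

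**Figure D1:**
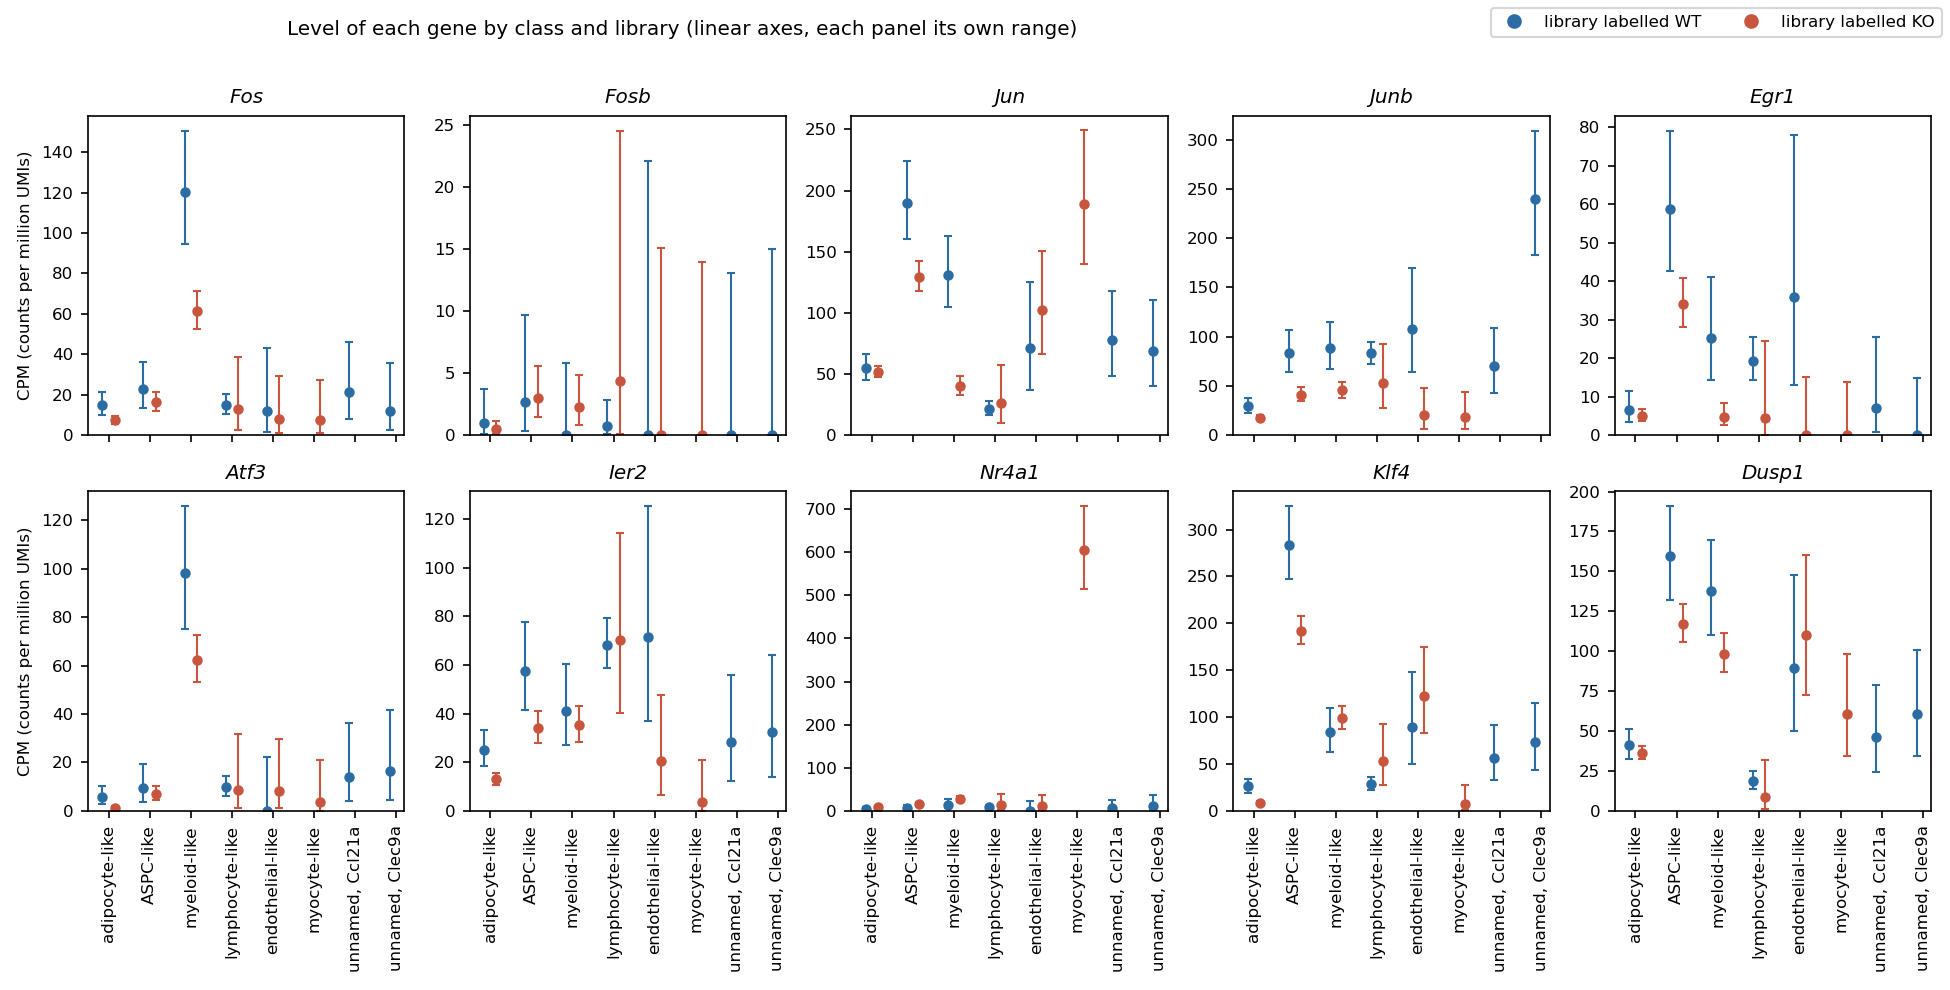
Level of each gene (CPM, linear axes with a range of their own) in each class with at least 50 nuclei, in the libraries labelled WT (blue) and KO (red), with exact Poisson 95% intervals of the counts. Fos and Atf3 stand highest in myeloid-like nuclei of both libraries, Klf4 in ASPC-like nuclei, and Nr4a1 stands at 605 CPM in the myocyte-like nuclei of KO and at or under 26.6 CPM in the other classes drawn.

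Among the AP-1 genes, Fos was at 120 CPM (94.8 to 151, 76 counts) in myeloid-like nuclei of WT and at 61.4 CPM (52.3 to 71.5, 164 counts) in those of KO. In the ASPC-like class it was at 22.8 and 16.3 CPM, in the adipocyte-like class at 14.8 and 7.41 CPM, in the lymphocyte-like class at 14.8 and 13.2 CPM and in the endothelial-like class at 11.95 and 8.16 CPM, the last from 2 counts in each library. The step from the myeloid-like to the ASPC-like class was 5.28-fold in WT (3.09 to 9.54) and 3.77-fold in KO (2.76 to 5.23). The ASPC-like class in turn was 1.53-fold (0.790 to 2.88) the adipocyte-like class in WT, within counting error, and 2.20-fold (1.50 to 3.20) in KO. Myeloid-like nuclei held 44.4% of all Fos UMIs in WT and 54.7% in KO. When each nucleus was thinned to 1000 UMIs, 9.60% of myeloid-like nuclei of WT and 5.63% of those of KO had a Fos UMI, against 0.980% and 0.450% of adipocyte-like nuclei. At full depth the shares were 14.5% and 12.1% against 4.55% and 4.81%. At the low adipocyte-like shares, expression and free RNA in the droplets cannot be told apart.

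Atf3 followed the same classes. It was at 98.1 CPM (75.2 to 126, 62 counts) and 62.5 CPM (53.4 to 72.7, 167 counts) in the myeloid-like nuclei of WT and KO. In every other class of at least 50 nuclei it was at or under 16.2 CPM. The myeloid-like nuclei held 54.9% of its UMIs in WT and 80.3% in KO, and their level was 17.4-fold (9.09 to 36.7) and 60.01-fold (30.9 to 134) that of adipocyte-like nuclei, where 11 and 9 counts were found. Over the 13 profiles of a class in a library with at least 50 nuclei, Fos and Atf3 had a Pearson correlation of 0.93, given as a description, since profiles of 1 library share depth and free RNA.

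Jun was spread more widely. Its level in ASPC-like nuclei was 190 CPM (160 to 224) in WT and 129 CPM (118 to 142) in KO, and the myocyte-like nuclei of KO reached 189 CPM (140 to 249). Myeloid-like nuclei stood at 131 CPM in WT and 40.0 CPM in KO, so this class was in WT 2.40-fold (1.78 to 3.22) the level of adipocyte-like nuclei, and in KO 0.771-fold (0.618 to 0.954). At 1000 UMIs per nucleus the KO shares with a Jun UMI, 4.97% of myeloid-like (3.54 to 6.76) and 4.61% of adipocyte-like nuclei (3.33 to 6.20), were not in that order, so no order of these classes was read in KO. Adipocyte-like nuclei were at 54.8 CPM and 52.0 CPM, endothelial-like nuclei at 71.7 and 102 CPM, and lymphocyte-like nuclei at 21.7 and 26.4 CPM.

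Junb, which often opposes Jun at the same sites, was highest in a small cluster left unnamed, since it passed 3 myeloid markers and 1 of ASPC, under the lead needed for a name. It was led by Clec9a and Ccl22, genes of dendritic cells, and held 101 nuclei of WT and 36 of KO. Junb was at 240 CPM (182 to 309, 59 counts) there in WT and at 171 CPM (102 to 271, 18 counts) in KO. Against all other kept nuclei this was 3.57-fold (2.68 to 4.70) and 6.09-fold (3.58 to 9.75), a contrast chosen after the values were seen. In WT the step to the next class, the endothelial-like, was 2.23-fold (1.30 to 4.01), and the endothelial-like (108 CPM), myeloid-like (88.6 CPM), lymphocyte-like (83.1 CPM) and ASPC-like (83.0 CPM) levels had overlapping intervals. In KO the same classes were at 20.4, 45.7, 52.8 and 41.3 CPM, and adipocyte-like nuclei were at 29.2 and 17.9 CPM. Fosb was scarce, with 0 to 10 counts per class. Its 4 counts in the 36 nuclei of the Clec9a cluster of KO came from 2 nuclei, and no order of its levels was read. Fos had 11 counts in these 36 nuclei, at 105 CPM (52.2 to 187), of which 3 nuclei held 81.8%, and in WT it had 3 counts there, at 12.2 CPM.

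Of the other transcription factors, Klf4 was at 284 CPM (247 to 325) in the ASPC-like nuclei of WT and at 192 CPM (178 to 208) in those of KO. Endothelial-like nuclei stood at 89.6 and 122 CPM, myeloid-like nuclei at 83.9 and 98.8 CPM, lymphocyte-like nuclei at 28.7 and 52.8 CPM, and adipocyte-like nuclei at 26.1 and 8.68 CPM. The ASPC-like level was 10.9-fold (7.97 to 15.1) that of adipocyte-like nuclei in WT and 22.1-fold (17.4 to 28.5) in KO, and in KO 61.8% of all Klf4 UMIs were in this class. The step to the next class, the endothelial-like, was 3.17-fold (1.88 to 5.76) and 1.57-fold (1.09 to 2.35). In the myocyte-like nuclei of KO there were 2 Klf4 counts, 0.113-fold the level of all other kept nuclei (0.0136 to 0.408).

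Egr1 was also highest in ASPC-like nuclei, at 58.9 CPM (42.8 to 79.1) in WT and 34.0 CPM (28.0 to 40.9) in KO. In WT the next class was the endothelial-like, at 35.9 CPM from 6 counts, and the step of 1.64-fold (0.698 to 4.72) was within counting error. In KO the step to the next class, the adipocyte-like at 4.98 CPM, was 6.84-fold (4.77 to 9.96). Myeloid-like nuclei were at 25.3 and 4.86 CPM and lymphocyte-like nuclei at 19.4 and 4.40 CPM, the last from 1 count in KO. The spread of the Egr1 counts over nuclei varied: 3 nuclei held 52.3% of the 44 counts in ASPC-like nuclei of WT and 41.9% of the 43 counts in adipocyte-like nuclei of KO, but 18.6% of the 113 counts in ASPC-like nuclei of KO, which lay in 53 nuclei. The count of 0 in endothelial-like nuclei of KO allows up to 15.1 CPM by its exact Poisson interval.

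Ier2 was at 68.3 CPM (58.6 to 79.2) in the lymphocyte-like nuclei of WT and 70.3 CPM (40.2 to 114, 16 counts) in those of KO, although these were mostly different kinds of lymphocyte. In WT it did not differ beyond counting error from the endothelial-like level of 71.7 CPM. ASPC-like nuclei stood at 57.6 and 34.0 CPM, myeloid-like nuclei at 41.1 and 35.2 CPM and adipocyte-like nuclei at 25.1 and 12.96 CPM. The lymphocyte-like nuclei, the most numerous class of WT, held 54.3% of the Ier2 UMIs of that library.

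Nr4a1 was low in most classes and concentrated in the myocyte-like nuclei of KO. The 52 myocyte-like nuclei of KO, in which all 10 muscle markers such as Ttn and Myh4 passed, held 160 of the 388 Nr4a1 UMIs of that library (41.2%) at 605 CPM (515 to 706). That was 40.7-fold (33.1 to 50.1) the level of all other kept nuclei of the library, a contrast chosen after the values were seen. The counts were spread over 45 of the 52 nuclei, 3 nuclei held 15.0% of them, and 40.4% of these nuclei (27.0 to 54.9) had a UMI when thinned to 1000. In the 44 mural-like nuclei of KO, 18 counts gave 128 CPM (76.1 to 203). Elsewhere it was at 14.2 and 26.6 CPM in myeloid-like, 5.36 and 16.0 CPM in ASPC-like, and 4.61 and 8.79 CPM in adipocyte-like nuclei. In the last of these, 3 nuclei of KO held 47.4% of the 76 counts and 1 nucleus held 23. No cluster of WT was myocyte-like. Where classes were set for each nucleus by its marker UMIs, 38 nuclei of WT (median 1361 UMIs) and 55 of KO fell in this class, with 1 Nr4a1 count at 13.8 CPM (0.348 to 76.6) in WT and 160 counts at 596 CPM (507 to 696) in KO. This rule asks only for more marker UMIs of 1 class than of any other. Myh4, Myh1 and Ckm were at 0 in the adipocyte-like, ASPC-like, myeloid-like, lymphocyte-like and endothelial-like classes of WT. The 38 nuclei therefore cannot be taken as muscle nuclei, and Nr4a1 was not compared between the libraries in muscle.

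Dusp1, the phosphatase, was at 159 CPM (132 to 191) in ASPC-like and 138 CPM (110 to 170) in myeloid-like nuclei of WT, which did not differ beyond counting error. In KO the ASPC-like level of 117 CPM (106 to 129), the endothelial-like level of 110 CPM (72.6 to 160) and the myeloid-like level of 98.4 CPM (86.9 to 111) lay close together, though ASPC-like over myeloid-like was 1.19-fold (1.015 to 1.397), beyond counting error. Adipocyte-like nuclei were lower, at 41.0 and 36.3 CPM, and lymphocyte-like nuclei lowest, at 18.6 and 8.79 CPM. Over the 13 profiles the levels of Dusp1 and Jun had a Pearson correlation of 0.77.

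Adipocyte-like nuclei stood below ASPC-like and myeloid-like nuclei for most of these genes, and this was set against all genes. Among genes with at least 50 counts, ASPC-like nuclei of WT were above adipocyte-like nuclei beyond counting error for 6 of 6 members, while 26.9% of all such genes were. In KO this held for 8 of 8 members and 41% of all genes. Myeloid-like nuclei were above adipocyte-like nuclei for 6 of 7 members in WT (40.6% of all genes) and for 7 of 9 in KO (45.7% of all genes). In KO Egr1 was within counting error, and Jun was lower in CPM, though no order was read for it, as given above. The adipocyte-like nuclei had the most UMIs, a median of 3651.5 and 7848.5 against 1723 and 3499 in ASPC-like nuclei. At 1000 UMIs per nucleus the direction was the same for Klf4, with a UMI in 22.7% of ASPC-like and 2.45% of adipocyte-like nuclei of WT, and in 15.1% and 0.675% of those of KO (35.9% and 10.53%, and 39.0% and 6.71%, at full depth).

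Within 1 library and class, some members stood higher in the same cluster and others did not. The myeloid-like nuclei of KO fell into cluster 9, led by Dcstamp and St18 (250 nuclei, median 3166 UMIs), and cluster 3, led by Vsig4, a receptor of resident macrophages (540 nuclei, median 2896.5 UMIs). The contrast was chosen after the levels had been seen and is a description, with no test. Atf3 was at 160 CPM in cluster 9 and 15.1 CPM in cluster 3, a ratio of 10.6 (6.98 to 16.7). Nr4a1 was at 74.3 and 3.92 CPM, a ratio of 19.0 (8.69 to 49.0). Fos was at 122 and 31.4 CPM, a ratio of 3.89 (2.79 to 5.48). All 3 genes thus stood several-fold higher in the Dcstamp cluster, with intervals that did not meet. Junb, at 84.8 and 27.4 CPM, had a ratio of 3.09 (2.12 to 4.53), and Jun, at 59.2 and 28.0 CPM, a ratio of 2.12 (1.404 to 3.19). Dusp1 went the other way, at 74.3 and 110 CPM, a ratio of 0.674 (0.500 to 0.897). Klf4 (0.847, 0.640 to 1.11) and Ier2 (0.889, 0.544 to 1.42) were within counting error.

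**Figure D2:**
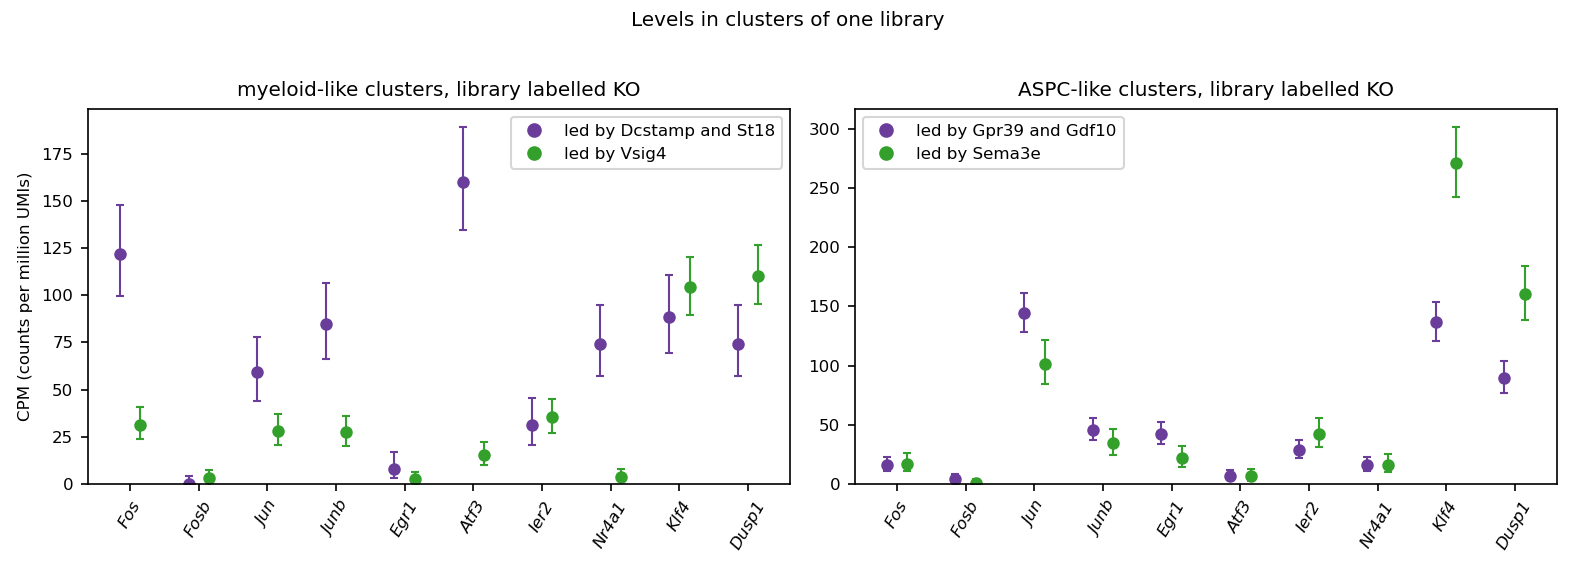
Level of each gene (CPM) with exact Poisson 95% intervals in the library labelled KO, for 2 myeloid-like clusters (left: led by Dcstamp and St18, purple; led by Vsig4, green) and 2 ASPC-like clusters (right: led by Gpr39 and Gdf10, purple; led by Sema3e, green). Atf3, Fos and Nr4a1 stand higher in the Dcstamp cluster, while Klf4 and Dusp1 stand higher in the Sema3e cluster.

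Of the 8 members with at least 50 counts in these clusters, 5 had a ratio of at least 2 (7.55% of all genes) and 0 a ratio of at most 0.5 (8.5%). Beyond counting error, 5 were higher (22.6% of all genes) and 1 was lower (17.9%). The clusters were made without the members among their variable genes. At 1000 UMIs per nucleus an Atf3 UMI was found in 13.1% of the nuclei of cluster 9 and 1.54% of cluster 3, a Fos UMI in 11.4% and 2.89%, and an Nr4a1 UMI in 5.93% and 0.578%. The median mitochondrial share was 2.33% in cluster 9 and 1.80% in cluster 3, and its part in the contrast was not tested.

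Related genes differed between these clusters in both directions, beside 22.6% of all genes higher and 17.9% lower beyond counting error. Of 9 other early response genes with at least 50 counts, 5 were higher beyond counting error, among them Ier5 (4.79-fold), the growth inhibitor Btg1 (3.64-fold) and Zfp36, which destabilises cytokine mRNAs (2.29-fold), and 2 were lower, Zfp36l1 (0.299-fold) and Per1, a clock gene (0.563-fold). Of 6 heat shock genes 4 were higher and 0 lower, with the chaperone Hsp90aa1 at 2.73-fold. The other AP-1 genes split, with Batf3 (2.34-fold), Fosl2 (1.97-fold) and Jund (1.36-fold) higher and Jdp2 (0.461-fold) lower of 5. The median log2 ratio was 1.09 over the 9 early response genes and 0.56 over the 6 heat shock genes. Over all genes it was 0.07, and 0.36 for those with 3000 intronic bases or fewer, to which most members belong.

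The ASPC-like nuclei of KO also fell into 2 clusters. Cluster 5 was led by genes such as Gpr39 and Gdf10 (385 nuclei, median 4510 UMIs), and cluster 6 by genes such as Sema3e, with the progenitor markers Pi16 and Dpp4 passing (373 nuclei, median 2934 UMIs). Klf4 was at 137 CPM in cluster 5 and 271 CPM in cluster 6, a ratio of 0.504 (0.429 to 0.593). Dusp1 was at 89.7 and 160 CPM, a ratio of 0.559 (0.455 to 0.687). Both stood higher in the Pi16 and Dpp4 cluster, and at 1000 UMIs a Klf4 UMI was found in 21.5% of its nuclei against 8.07%. Jun, at 144 and 102 CPM, had a ratio of 1.42 (1.14 to 1.76), and Egr1, at 42.2 and 22.0 CPM, a ratio of 1.92 (1.23 to 3.07), so these genes stood higher in the Gdf10 cluster. Beyond counting error 2 of 8 members were higher (16.9% of all genes) and 2 lower (24.7%), while 0 reached a ratio of at least 2 (8.1%) or at most 0.5 (6.94%). These shares of members lie near those of all genes. The clusters differed in depth, as above, and in the median mitochondrial share, 1.95% and 1.53%, and the part of these in the contrast was not tested. The Egr1 ratio was the 1 value of this contrast that moved when its 3 richest nuclei were left out, to a log2 ratio of 2.03.

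Lexis KO was then set against Lexis WT class by class. As labelled, 5 of 10 members in adipocyte-like, 6 of 10 in ASPC-like and 6 of 9 in myeloid-like nuclei were lower in the KO library beyond counting error, genes under 50 counts included, beside 35.2%, 21.9% and 26.3% of all genes with at least 50 counts. The 10 genes summed were at 209 CPM in WT and 151 CPM in KO in adipocyte-like nuclei, a ratio of 0.721 (0.644 to 0.807). They were at 873 and 590 CPM in ASPC-like nuclei, a ratio of 0.676 (0.618 to 0.740), and at 741 and 476 CPM in myeloid-like nuclei, a ratio of 0.642 (0.577 to 0.715). In lymphocyte-like nuclei, at 273 and 255 CPM, and endothelial-like nuclei, at 478 and 404 CPM, the ratios of 0.933 (0.701 to 1.22) and 0.845 (0.623 to 1.15) were within counting error.

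In adipocyte-like nuclei the KO over WT ratio was 0.332 for Klf4 (0.230 to 0.484), 0.499 for Fos (0.317 to 0.802), 0.517 for Ier2 (0.366 to 0.738) and 0.614 for Junb (0.451 to 0.848). These 4 of the 8 members with at least 50 counts were lower beyond counting error (35.2% of all such genes), 0 were higher (36.3%), 2 were at a ratio of at most 0.5 (17.6%) and 0 at 2 or more (25.9%). Atf3, under 50 counts, was lower too, at 0.185 (0.068 to 0.491) from 11 and 9 counts. Jun at 0.948 and Dusp1 at 0.887 were within counting error, as were Egr1 at 0.747 and Nr4a1 at 1.91 (0.954 to 4.33). With TMM scaling, which raised each ratio 1.23-fold here, Junb at 0.754 (0.553 to 1.040) was within counting error, Fos at 0.612 was no longer at 0.5 or less and Nr4a1 was higher, while 44.7% of all genes were higher and 25.6% lower. At no more than 1% mitochondrial UMIs Fos, Junb and Atf3 were no longer lower beyond counting error, and Egr1 was lower. With mitochondrial genes and Malat1 left out of the totals, Jun and Dusp1 were lower too.

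In ASPC-like nuclei 6 of 8 members were lower beyond counting error (21.9% of all genes): Junb at 0.497 (0.366 to 0.682), Egr1 at 0.578 (0.404 to 0.838), Ier2 at 0.591 (0.413 to 0.860), Klf4 at 0.677 (0.579 to 0.794), Jun at 0.681 (0.562 to 0.829) and Dusp1 at 0.735 (0.597 to 0.910). Nr4a1 was higher, at 2.98 (1.10 to 11.3) from 4 and 53 counts, and was the 1 member higher beyond counting error (33.7% of all genes) and at 2 or more (25.1%). It was no longer higher beyond counting error with at least 1000 genes per nucleus or at most 1% mitochondrial UMIs. The same held with mitochondrial genes and Malat1 left out of the totals. Dusp1 was no longer lower with at least 1000 genes per nucleus, and Junb and Ier2 were no longer lower at no more than 1% mitochondrial UMIs. Junb was the 1 member at 0.5 or less (8.78%), and with TMM scaling it was at 0.534, above that limit. The Egr1 difference rested on few nuclei, since without the 3 richest nuclei of each library the log2 ratio went to -0.02. Where classes were instead set for each nucleus by its marker UMIs, the median of the members in this class went from -0.52 to -0.0036 on the log2 scale. Jun, Egr1, Klf4 and Dusp1 were then no longer lower beyond counting error, while Fos and Atf3 were lower. Under this rule the class grew from 298 to 896 nuclei in WT and from 787 to 860 in KO, so it held many other nuclei of WT. By cluster, Klf4 was at 283 CPM and Dusp1 at 159 CPM in cluster 8 of WT. In cluster 6 of KO they were at 271 and 160 CPM, and in cluster 5 at 137 and 89.7 CPM. Their intervals overlapped in clusters 8 and 6 and did not meet in clusters 8 and 5. Cluster 8 passed markers of both KO clusters, so a different mix of cells cannot be told apart from a change within cluster 5. Jun, at 184 CPM in cluster 8, was at 144 CPM in cluster 5 and 102 CPM in cluster 6.

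In myeloid-like nuclei 5 of 8 members were lower beyond counting error (26.3% of all genes) and 0 higher (33.2%). Jun was at 0.305 (0.227 to 0.411), the 1 member at 0.5 or less (12.8%), and 0 were at 2 or more (24.3%). Fos was at 0.510 (0.386 to 0.679), Junb at 0.515 (0.372 to 0.720), Atf3 at 0.637 (0.473 to 0.867) and Dusp1 at 0.715 (0.559 to 0.922). Egr1, with 16 and 13 counts, was at 0.192 (0.085 to 0.426), and Klf4 at 1.18 was within counting error. With TMM scaling Dusp1 at 0.808 (0.632 to 1.042) was within counting error and Nr4a1 was higher, while 38.6% of all genes were higher and 20.6% lower. Fos, Atf3 and Dusp1 were no longer lower beyond counting error with classes by marker UMIs, nor were Atf3 and Dusp1 at resolution 0.2. The length correction described below ended the calls of Fos, Junb and Dusp1. Egr1 was no longer lower with at least 1000 genes per nucleus, nor were Egr1 and Dusp1 at no more than 1% mitochondrial UMIs. The myeloid-like class held cluster 7, led by genes such as Timd4, in WT and clusters 3 and 9 in KO. Fos was at 129 CPM in cluster 7, close to the 122 CPM of cluster 9 and above the 31.4 CPM of cluster 3, while Jun was at 137 CPM in cluster 7 and lower in both KO clusters. Atf3 was at 91.4 CPM (68.6 to 119) in cluster 7, below the 160 CPM (135 to 189) of cluster 9 and above the 15.1 CPM of cluster 3, so its lower level in KO held for the class and for cluster 3 but not for cluster 9.

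In lymphocyte-like nuclei none of 6 members was beyond counting error in either direction (20.6% of all genes were higher and 19.8% lower), with 58 member counts in the 106 nuclei of KO. Egr1 and Dusp1 were at 0.5 or less (20.7% of all genes) from 1 and 2 counts in KO, and 0 were at 2 or more (15.8%). With TMM scaling Junb was lower in this class, at 0.545 (0.277 to 0.971), while 16.6% of all genes were higher and 26.9% lower. Klf4 was higher beyond counting error with at least 1000 genes per nucleus, with classes by marker UMIs and with the correction for intronic length. In endothelial-like nuclei no member had 50 counts, and 24.4% of the genes that did were lower beyond counting error and 39.3% higher. Junb was at 0.190 (0.055 to 0.530) and Ier2 at 0.285 (0.079 to 0.868), while Egr1, with 6 counts in WT and 0 in KO, had an interval of 0 to 0.580. Read at a floor of 3 counts in the KO nuclei, Egr1 was 2.93-fold lower, which is not a limit of that interval. Jun at 1.42 (0.689 to 3.11), Klf4 at 1.37 (0.712 to 2.73) and Dusp1 at 1.23 (0.631 to 2.49) were above 1 and within counting error. With the correction for intronic length described below, Junb, Egr1 and Ier2 were no longer lower beyond counting error, and Jun, Klf4 and Dusp1 were higher. Egr1 and Ier2 were also no longer lower with at least 1000 genes per nucleus or at resolution 0.2, nor were Junb and Ier2 with classes by marker UMIs.

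**Figure D3:**
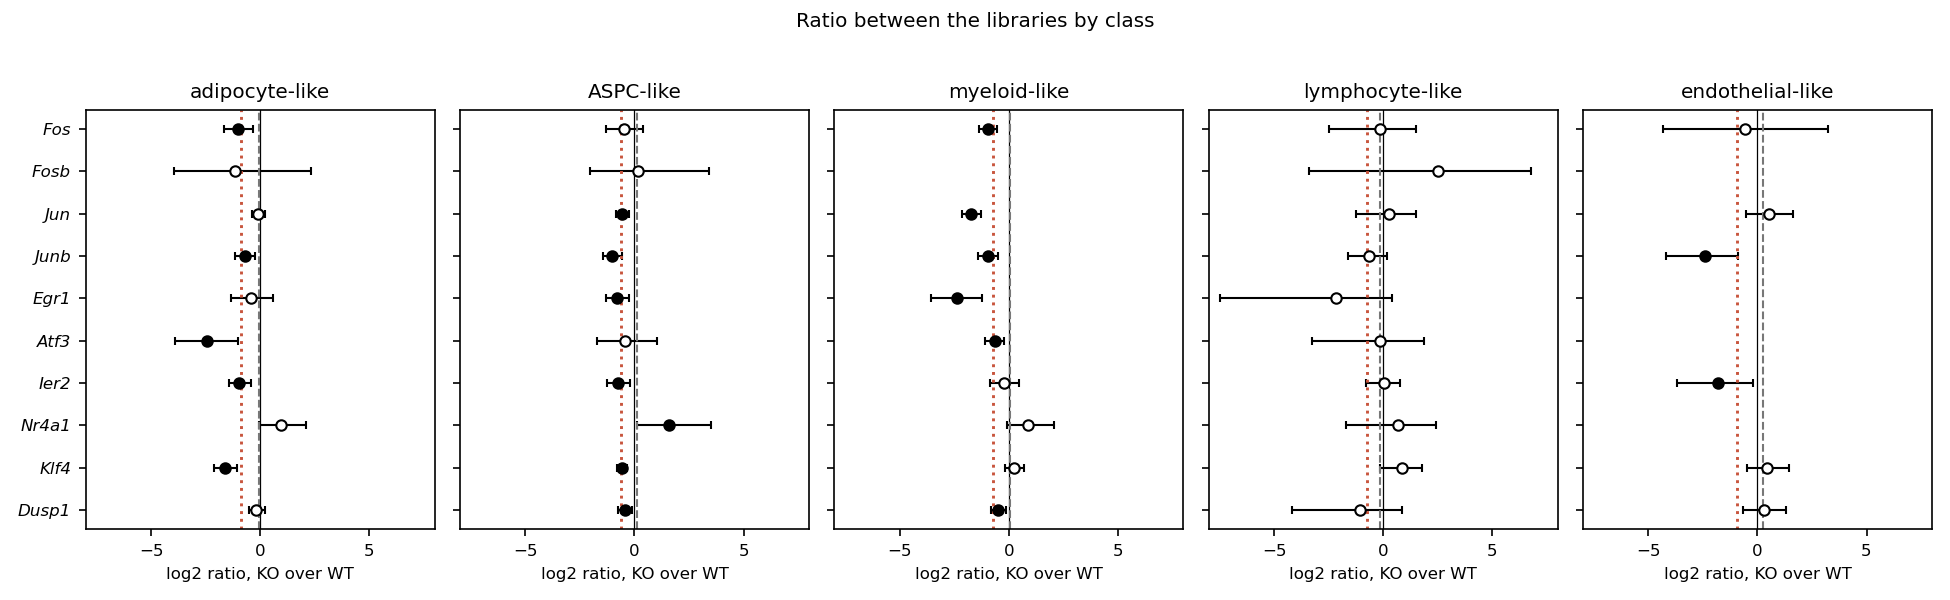
Log2 ratio of KO over WT, as labelled, for each gene in 5 classes, with exact 95% intervals for counting error. Filled points lie beyond counting error, the grey dashed line is the median of all genes with at least 50 counts, and the red dotted line is the median of those with 3000 intronic bases or fewer; most filled points lie near or left of the red line, and Nr4a1 lies to the right.

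The medians over the members, on the log2 scale, were -0.83 in adipocyte-like, -0.52 in ASPC-like, -0.65 in myeloid-like (9 members) and -0.05 in lymphocyte-like nuclei. In endothelial-like nuclei the median was -0.13 over 6 members, or -0.55 with Egr1 read at the floor of 3 counts. The medians of all genes with at least 50 counts were -0.05, 0.11, 0.06, -0.12 and 0.24. A measure of gene structure moved with these values. In the annotation used for lengths, Jun, Junb and Ier2 have no intron, Dusp1 has 233 intronic bases, Egr1 678, Fos 1032 and Klf4 2275. Nr4a1 has 5473 there and Atf3 11061. The Nr4a1 value is small beside the gene span of 20894 bases given above, which comes from another annotation. Where genes had 3000 intronic bases or fewer, the median log2 ratio was -0.90 in adipocyte-like, -0.60 in ASPC-like, -0.74 in myeloid-like, -0.75 in lymphocyte-like and -0.92 in endothelial-like nuclei. Over genes with more than 100000 intronic bases it was 1.39, 1.53, 1.51, 1.20 and 1.44.

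**Figure D4:**
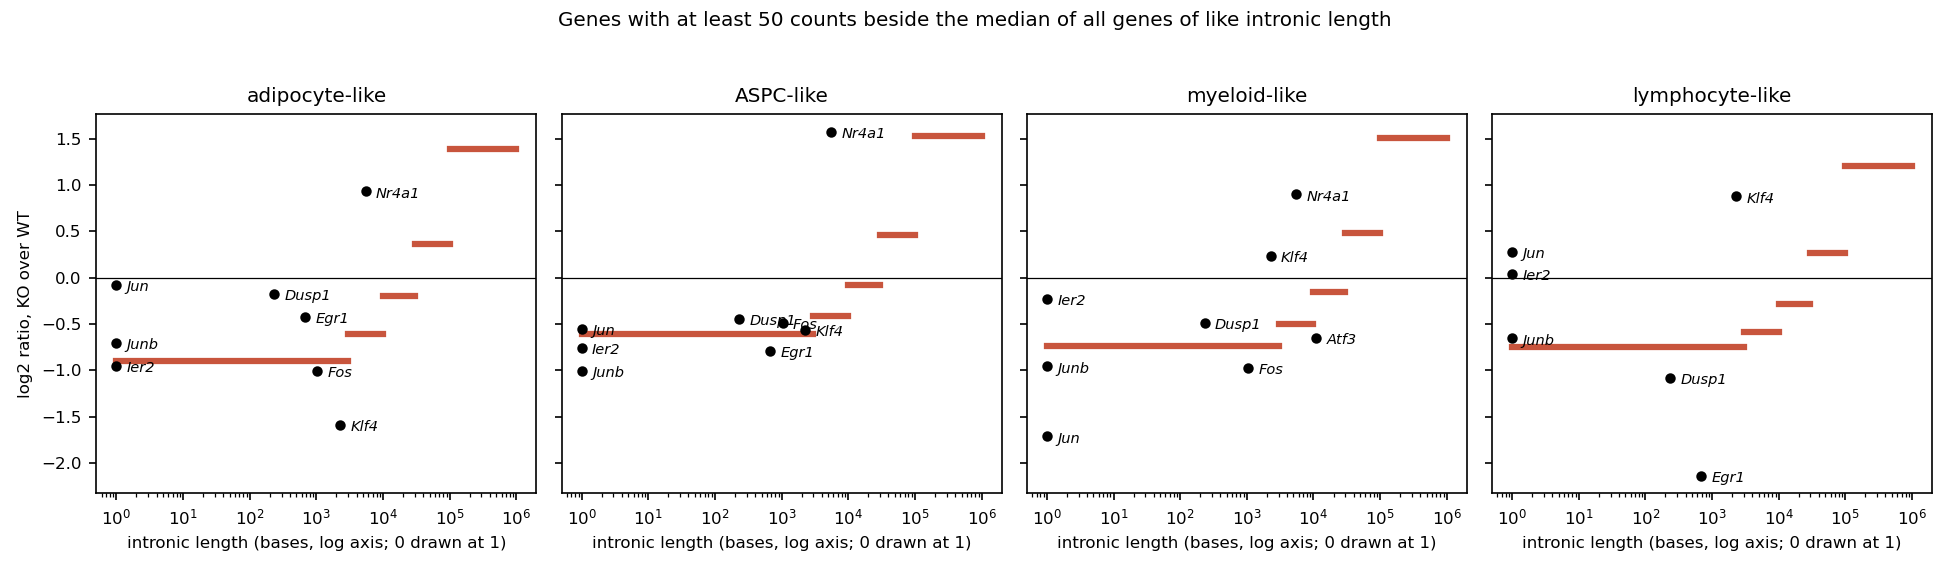
Log2 ratio of KO over WT of each member with at least 50 counts in the class against the intronic length of the gene (log axis, 0 drawn at 1), with the median of all genes in each range of length as a red bar, in 4 classes. The bars climb from below 0 for short genes to above 1 for genes with over 100000 intronic bases, and most members lie among the short genes, on both sides of the first bar.

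With the median of all genes in the same range of intronic length taken off each gene, the median of the members was 0.07 in adipocyte-like, 0.05 in ASPC-like and -0.22 in myeloid-like nuclei on the log2 scale. Members lower beyond counting error then numbered 2 in adipocyte-like, 0 in ASPC-like and 3 in myeloid-like nuclei, and those higher 3, 1 and 2. Klf4 in adipocyte-like nuclei was then at -0.69, Jun in myeloid-like nuclei at -0.97 and Egr1 there at -1.64, while Fos in adipocyte-like nuclei came to -0.10 and Ier2 to -0.05. Atf3 in adipocyte-like nuclei, from 11 and 9 counts, was furthest from its range among these, at -2.24. Junb in adipocyte-like nuclei turned to 0.20 and Dusp1 in myeloid-like nuclei to 0.26. In ASPC-like nuclei Jun came to 0.05, Klf4 to 0.04 and Dusp1 to 0.16, above 0. Nr4a1 stood above the length range it was placed in, at 1.54 in adipocyte-like, 1.99 in ASPC-like and 1.39 in myeloid-like nuclei. That range, 3000 to 10000 bases, had medians of -0.60, -0.42 and -0.50. The next range, 10000 to 30000 bases, had medians of -0.20, -0.08 and -0.15, so the Nr4a1 values would be smaller with a longer gene model. The part of intronic length in the differences between the libraries was not tested further.

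Markers of other cells and mitochondrial RNA also differed between the libraries. The 10 lymphocyte markers summed to 300.1 CPM in adipocyte-like, 414 CPM in ASPC-like and 831 CPM in endothelial-like nuclei of WT. In KO they summed to 13.1, 5.42 and 4.08 CPM, with Cd3e, Cd3g and Themis at 0 in ASPC-like nuclei and 9 of 10 at 0 in endothelial-like nuclei. All 10 were detected in adipocyte-like nuclei of both libraries. Levels of Junb and Ier2 in the lymphocyte-like nuclei of WT were 83.1 and 68.3 CPM, and those of Klf4 and Dusp1 were 28.7 and 18.6 CPM. Lymphocyte markers summed to 4560 CPM in that class itself, and their part in the differences was not tested. In nuclei with at most 1% of mitochondrial UMIs, the 10 genes summed to 192 CPM in WT and 135 CPM in KO in adipocyte-like nuclei, 894 and 503 CPM in ASPC-like nuclei, and 771 and 387 CPM in myeloid-like nuclei, with mitochondrial UMIs taken out of the totals. In nuclei over 1% they summed to 261 and 217 CPM, 886 and 633 CPM, and 743 and 524 CPM. The direction was the same at both shares of mitochondrial RNA.

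Whether the genes were found together was read in nuclei thinned to 1000 UMIs. In ASPC-like nuclei 53.5% of WT and 39.0% of KO had a UMI of at least 1 of the 10 genes, and 16.2% and 8.51% had UMIs of at least 2, a difference of -7.65 percentage points (-13.03 to -2.85). In myeloid-like nuclei 41.2% and 35.9% had at least 1, and 12.4% and 6.94% at least 2, a difference of -5.46 points (-10.49 to -1.14). In adipocyte-like nuclei 17.2% and 12.3% had at least 1, and 0.245% and 1.91% at least 2, from 1 and 17 nuclei, and the order of the latter turned at 500 UMIs per nucleus (a difference of -0.97 points). Of the 52 myocyte-like nuclei of KO, 51.9% (37.6 to 65.99) had at least 1. Thinning left out 38 of 298 and 23 of 787 ASPC-like nuclei and 75 of 325 and 47 of 811 myeloid-like nuclei with under 1000 UMIs. A myeloid-like nucleus with a Fos UMI also had a UMI of another member in 15 of 24 cases in WT (62.5%) and 24 of 43 in KO (55.8%), against 34.96% and 32.0% of nuclei without a Fos UMI. At 500 UMIs per nucleus the excess was not seen in KO, with 4 of 23 nuclei with Fos (17.4%) against 143 of 788 without (18.1%), and in WT it was 5 of 16 (31.25%, 11.02 to 58.7) against 65 of 309 (21.0%, 16.6 to 26.0). In KO at 1000 UMIs Dusp1 was found in 23.3% of nuclei with Fos and 9.15% of those without, and Atf3 in 18.6% and 4.44%. At 500 UMIs Dusp1 was in 4.35% and 4.31% and Atf3 in 1 of the 23 nuclei with Fos, so no excess of single genes beside Fos was read.

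**Figure D5:**
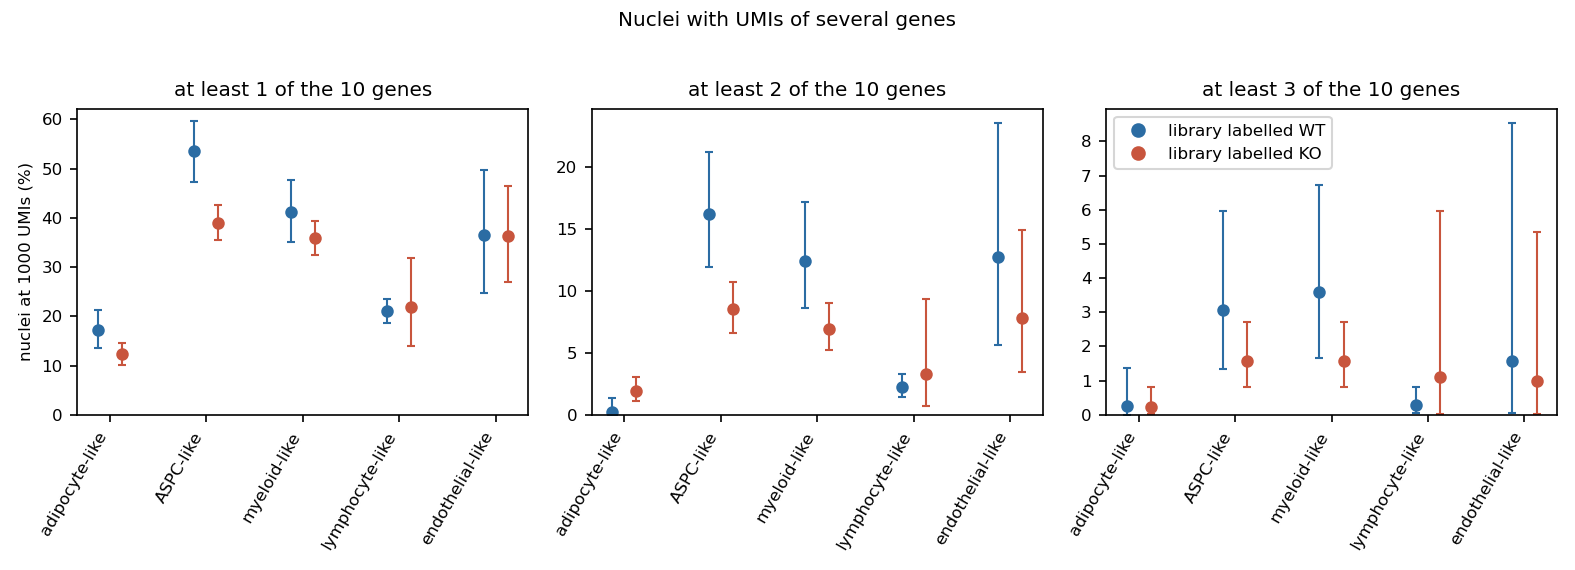
Share of nuclei, each thinned to 1000 UMIs, with a UMI of at least 1, 2 or 3 of the 10 genes, by class, in the libraries labelled WT (blue) and KO (red), with exact binomial 95% intervals. Of the 5 classes drawn, ASPC-like nuclei show the highest shares with at least 1 gene, at 53.5% and 39.0%, and adipocyte-like and lymphocyte-like nuclei the lowest. Intervals of the ASPC-like class overlap those of the myeloid-like and endothelial-like classes in both libraries.

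Related genes were read from fixed lists in the same way. Of 17 other early response genes, 12 had at least 50 counts in adipocyte-like nuclei, 9 of which were lower in KO beyond counting error and 1 higher. In ASPC-like nuclei 7 of 12 were lower and 1 higher, in myeloid-like nuclei 9 of 11 lower and 2 higher, and in lymphocyte-like nuclei 5 of 12 lower and 0 higher, beside the shares of all genes given above. The median log2 ratio of the list was -1.10, -0.68 and -0.96 in the first 3 of these classes, near that of all genes with short introns. Ier5, an intronless regulator of heat shock factor activity, had a ratio of 0.102 (0.063 to 0.162) in adipocyte-like, 0.085 (0.048 to 0.148) in ASPC-like and 0.266 (0.195 to 0.365) in myeloid-like nuclei. Btg1 had a ratio of 0.179 in ASPC-like nuclei and Zfp36l2 one of 0.238 in adipocyte-like nuclei. Per1 went the other way, at 1.58, 1.77 and 3.90.

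Over all genes with at least 50 counts, 35.2% were lower in KO beyond counting error in adipocyte-like, 21.9% in ASPC-like, 26.3% in myeloid-like and 19.8% in lymphocyte-like nuclei, and 36.3%, 33.7%, 33.2% and 20.6% were higher. Heat shock genes were lower for 7 of 9 in adipocyte-like nuclei, 4 of 9 in ASPC-like, 5 of 7 in myeloid-like and 3 of 7 in lymphocyte-like nuclei, and 1 was higher, the small chaperone Hspb1 at 1.81 (1.23 to 2.76) in adipocyte-like nuclei. Hspd1, the mitochondrial chaperone, had a ratio of 0.423 in adipocyte-like nuclei, and Hsp90aa1 one of 0.556 in myeloid-like nuclei. Of the unfolded protein and integrated stress genes, 5 of 7, 5 of 6, 4 of 6 and 3 of 6 were lower in those classes. Ddit3, which encodes CHOP, had a ratio of 0.431 in adipocyte-like and 0.263 in myeloid-like nuclei, and Herpud1 was higher in ASPC-like nuclei, at 1.46.

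The upstream kinases and factors, many of them long genes, differed in both directions. In adipocyte-like nuclei 6 of 14 were higher and 6 lower, near the shares of all genes (36.3% and 35.2%), and in ASPC-like, myeloid-like and lymphocyte-like nuclei 5, 7 and 6 of 12 were higher (33.7%, 33.2% and 20.6% of all genes) and 2, 1 and 1 lower (21.9%, 26.3% and 19.8%). Mkl1, a partner of serum response factor with 172353 intronic bases, had a ratio of 7.53 in adipocyte-like, 7.24 in ASPC-like and 10.2 in myeloid-like nuclei, and Crem, a CREB relative, one of 5.78 in adipocyte-like nuclei. The other AP-1 genes split too, with Jund lower at 0.430 and Jdp2, a repressor of AP-1 with 38705 intronic bases, higher at 2.61 in adipocyte-like and 9.10 in myeloid-like nuclei. Among dual-specificity phosphatases, Dusp6, with 1462 intronic bases, had a ratio of 0.100 in adipocyte-like nuclei, and Dusp16, with 69503, one of 4.30. Of the NR4A, EGR and KLF genes, 3 of 5 were lower in adipocyte-like nuclei, with Klf2 at 0.169. Egr3 had 119 counts in lymphocyte-like nuclei of WT and 0 in those of KO, where the classes hold different lymphocytes.

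The genes whose levels over the 13 profiles were most like the summed level of the 10 members, of 10982 genes compared and with levels centred within each library, were Polb (Pearson correlation 0.84), Trpm4 (0.84), 9530068E07Rik (0.83), Svil (0.83) and Nfic (0.81). The summed level was highest in ASPC-like nuclei of WT (873 CPM) and in myocyte-like nuclei of KO (896 CPM), the latter mostly Nr4a1 and Jun. Among all pairs of members, the most negative correlation was that of Ier2 and Nr4a1, at -0.60. The profiles include the myocyte-like nuclei of KO, with Nr4a1 at 605 CPM and Ier2 at 3.78 CPM from 1 count. The value without them was not computed, so no opposition of the 2 genes was read.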

How the data were processed

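The authors prepared nuclei from pooled iWAT with the 10x Genomics 3' v3.1 kit, 1 library per genotype, and deposited a UMI count for each gene in each barcode, made with Cell Ranger (6.1.1 per the file headers). The submitters' processing notes also name Seurat 4 and mm10. The annotation release, the intron setting, the choice of barcodes and any removal of free RNA are not given in the sources used here. The libraries shared 12 barcodes, 10 of them among kept nuclei.

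Nuclei with at least 500 genes and at most 5% mitochondrial UMIs were kept in Python 3.11.15. Scrublet in scanpy 1.11.5 marked 92 doublets in KO. It marked 0 in WT, where the 4% with the highest scores (146 nuclei) were removed. Counts scaled to 10000 went into Louvain clustering (Seurat 5.3.0, R 4.3.3) with 1994 variable genes left of 2000 after the members and related genes were taken out, 20 principal components, 20 neighbours and resolution 0.5. A marker passed where 5% or more of the nuclei had a UMI and its level was 2-fold or more above the other clusters' mean. A name needed 3 passing markers and a lead of 3, and was withheld where the 10 genes with the largest fold held more markers of some other class.

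Counts were summed by class and library and divided by all UMIs (CPM). Intervals are exact Poisson for levels, exact binomial (Clopper-Pearson) for shares and exact conditional binomial for ratios, from scipy 1.17.1, at 95%. The interval of a difference of shares combined those of both. Ratios of all genes used a minimum of 50 counts, and called means a ratio of at least 2 or at most 0.5, or an interval that leaves out 1. A count of 0 was read against a floor of 3 counts. Intronic lengths were taken by gene identifier from GENCODE vM1, as lengths alone, and promoters from RefSeq. The scripts were tested on simulated data. Shares of nuclei with a gene were read at 1000 UMIs per nucleus and again at 500. Alternatives were other filters, doublets left in, other resolutions and class rules, TMM scaling in edgeR 4.0.16, other totals, a correction for intronic length, and the 3 nuclei richest in a gene left out. Alternatives for ratios within a library were added after the data were seen.

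All 10 members are named. From each related list and class, at most 3 genes at each end were named, among those with at least 50 counts and an interval that leaves out 1. The 5 genes most like the members were taken on log2(CPM + 10) among genes with at least 200 UMIs. The members and lists were chosen with earlier results of these data known.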

Additional observations from a re-analysis of the deposited data

Results flagged for a closer look

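Barcodes that the filters left out, which no comparison above uses, also held UMIs of the 10 genes. They were flagged because their summed level passed the limit that a count of 0 allows. Any barcodes that hold these RNAs would pass it, so nothing is concluded from that. With mitochondrial UMIs taken out of the totals, the summed level in barcodes with under 500 genes was 437 CPM (375 to 507, 174 counts in 447 barcodes) in the library labelled WT, where a count of 0 allows up to 7.54 CPM. In the library labelled KO it was 280.2 CPM (252 to 311, 358 counts in 1448 barcodes). In barcodes over 5% mitochondrial UMIs it was 655 CPM (617 to 695, 1100 counts in 904 barcodes) in WT and 594 CPM (555 to 635, 854 counts in 608 barcodes) in KO. Barcodes that passed both filters were at 387 CPM and 324 CPM. Over 5% mitochondrial UMIs, Fos was at 77.4 CPM in WT and 73.0 CPM in KO, against 26.0 and 18.9 CPM in barcodes that passed, and Atf3 was at 35.1 and 74.4 CPM against 16.4 and 13.4 CPM. These barcodes were put in no class, so differences in the mix of cells cannot be told apart from differences within cells.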

How the results depend on the processing

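Of 58 values that answer a comparison under an alternative, 53 stayed within the spread allowed around the main value. Where that spread takes in 0, the direction could still turn. The lymphocyte-like difference in nuclei with at least 2 members, for one, was 1.08 points at 1000 UMIs and -1.09 at 500. With a correction for intronic length the median log2 ratio of the members turned to 0.073 in adipocyte-like and 0.045 in ASPC-like nuclei. The ASPC-like median moved to -1.38 in nuclei with at most 1% mitochondrial UMIs and to -0.0036 with classes set by marker UMIs of each nucleus, and the difference in adipocyte-like nuclei with at least 2 members turned to -0.97 points at 500 UMIs. For single genes the length correction turned Junb in adipocyte-like nuclei to 0.20, Jun, Klf4 and Dusp1 in ASPC-like nuclei to 0.0496, 0.041 and 0.16, and Dusp1 in myeloid-like nuclei to 0.26. Classes by marker UMIs turned Jun, Klf4 and Dusp1 in ASPC-like nuclei to 0.0036, 0.20 and 0.19. That class then grew from 298 to 896 nuclei in WT and from 787 to 860 in KO. The cause was not tested. Members lower beyond counting error in adipocyte-like, ASPC-like and myeloid-like nuclei numbered 5, 6 and 6. They became 4, 6 and 5 with TMM scaling, 3, 4 and 4 at no more than 1% mitochondrial UMIs, and 5, 4 and 3 with classes by marker UMIs. With the length correction they were 2, 0 and 3, and with totals without mitochondrial genes and Malat1 they were 7, 6 and 6. Among the ratios between libraries for single genes, 204 values stayed within the interval of the main value, 23 moved and 8 reversed. Among ratios within a library 163 stayed within it and 3 moved. No paired analysis was possible because there was 1 library per genotype, and no replicate could be left out. Depth limits Fosb in every class, and all members in the lymphocyte-like nuclei of KO and in the mural-like and endothelial-like nuclei of both libraries.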
